A study of Mus musculus with 6 samples.

Results

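Nod2 lies on mouse chromosome 8, and 10 genes that flank it are described here, some before and some after it: Prdx2, Orc6 (named Orc6l in the authors' table), Gpt2, Nkd1, Tox3, Fto, Nlrc5, Cpne2, Arl2bp and Coq9. They were taken by symbol and position from a table in which the authors kept only probe sets that differed between the genotypes, and they are measured there by 11 of its 1053 probe sets, of 28853 on the array. The groups were 3 arrays from Nod2-/- mice and 3 from wild type (WT) mice, all 8 weeks old and on the C57BL/6J background. Epithelium was cut by laser from the base of crypts in methacarn-fixed ileum, and 100 ng of total RNA from each capture was hybridised to an Affymetrix MoGene 1.0 ST array. The labels give neither the Nod2 allele nor the strain it was made in, nor whether littermates or pooled animals were used. Nothing in them ties an array to its own mouse, so the spread between arrays may be partly technical.

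Nod2 is an intracellular receptor that senses muramyl dipeptide, a fragment of bacterial cell walls, and signals through the kinase Ripk2. Genes that sit close together on a chromosome are usually inherited together, so animals bred for a targeted allele tend to share the alleles of its neighbours as well. The neighbours themselves have unrelated jobs: they include a peroxidase, a subunit of the replication origin complex and proteins of mitochondrial metabolism. Others are a Wnt inhibitor and another member of the NLR family to which Nod2 belongs. DNA sequence of the animals was not analysed here.

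The choice of members sets what the values can show. The table holds each probe set with a log2 difference (Nod2-/- minus WT) of at least 0.41 in size, which is a 1.33-fold difference, or with an unadjusted p of 0.05 or less and at least a 1.25-fold difference. All 11 member probe sets met the fold rule, so their differences are given as a description and no test is attached to them. Over the whole array 3.33% of probe sets met the fold rule, 1.23% of them lower and 2.11% of them higher in Nod2-/-. With limma over all 28853 probe sets, 0 (0%) had a Benjamini-Hochberg adjusted p under 0.05. An unadjusted limma p under 0.05 was found for 1106, a smaller share than the 0.05 expected if no probe set differed.

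In Nod2-/- crypt bases 9 of the 11 probe sets were lower and 2 were higher, and in 5 there was no overlap between the arrays of Nod2-/- and WT, which held for 8.07% of all probe sets. Without overlap 4 were lower and 1 was higher, as were 4.64% and 3.42% of all probe sets. The fold rule that selected the 11 favours non-overlap, so the share over all probe sets is not one of like probe sets. Of the 2327 without overlap on the array, 1859 and, in the stretch from Prdx2 to Coq9, 13 more lay outside the table of 1053. The table's own probe sets thus lacked overlap far more often than 8.07%. Among the 11, the lower ones were those of Prdx2, Orc6, Gpt2, Nkd1, Tox3, Fto, Arl2bp, Coq9 and the first of a pair of probe sets for Nlrc5. The higher ones were those of Cpne2 and the second probe set of Nlrc5. Over the 10 genes, each taken by its brighter probe set, the median log2 difference was -0.56, beside -0.01 over all probe sets. In material cut from tissue, fewer cells of a type and less RNA per cell cannot be told apart.

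The letters upstream of 4 of these genes are shown, and no value below depends on the letters. Prdx2 separated the genotypes most cleanly, Nkd1 had the largest difference and lies nearest to Nod2, Orc6 is another gene that was lower, and Cpne2 was higher. Each line gives the 250 bases before the transcription start in RefSeq, 5′ to 3′ on the gene's own strand (build GRCm38.p6, all on the plus strand). Capitals mark matches to a CCAAT box (CCAAT or ATTGG) or a GC box (GGGCGG or CCGCCC). The windows are chr8:84969372-84969621 for Prdx2, chr8:85299382-85299631 for Orc6, chr8:88527383-88527632 for Nkd1 and chr8:94532778-94533027 for Cpne2.
Prdx2: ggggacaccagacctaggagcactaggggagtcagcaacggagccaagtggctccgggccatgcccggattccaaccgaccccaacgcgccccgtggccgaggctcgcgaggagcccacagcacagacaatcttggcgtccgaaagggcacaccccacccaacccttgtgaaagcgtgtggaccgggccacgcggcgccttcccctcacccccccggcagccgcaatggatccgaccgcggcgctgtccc
Orc6: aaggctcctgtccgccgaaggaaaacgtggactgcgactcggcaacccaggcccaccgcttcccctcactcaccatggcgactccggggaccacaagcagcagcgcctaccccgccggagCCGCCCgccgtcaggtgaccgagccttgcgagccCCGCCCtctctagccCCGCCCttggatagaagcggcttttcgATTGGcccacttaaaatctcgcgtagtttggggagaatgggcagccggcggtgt
Nkd1: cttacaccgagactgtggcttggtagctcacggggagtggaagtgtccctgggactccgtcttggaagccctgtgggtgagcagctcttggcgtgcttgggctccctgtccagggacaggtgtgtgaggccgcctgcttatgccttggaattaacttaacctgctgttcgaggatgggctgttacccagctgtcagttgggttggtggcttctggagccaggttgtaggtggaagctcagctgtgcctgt
Cpne2: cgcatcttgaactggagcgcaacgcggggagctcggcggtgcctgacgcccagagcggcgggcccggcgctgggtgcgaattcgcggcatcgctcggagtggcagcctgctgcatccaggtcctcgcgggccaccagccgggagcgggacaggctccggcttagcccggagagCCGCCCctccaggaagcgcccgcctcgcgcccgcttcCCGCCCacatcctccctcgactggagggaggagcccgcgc

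RefSeq windows were matched for 9 of the 10 genes. The windows of 5 held a GC box, which 32.7% of all 32851 windows of this length hold, and that of Orc6 alone held a CCAAT box, which 33.9% hold. Neither the TATA box letters TATAAA nor the TCF/LEF core CTTTGA, searched on both strands, occurred in any of the 9, and they occur in 12.4% and 13.8% of all windows. The window of Orc6 held 3 GC boxes and 1 CCAAT box. That of Cpne2, the gene of opposite direction, held 2 GC boxes, and those of the lower genes Gpt2, Tox3 and Coq9 held 2, 4 and 1. The windows of Prdx2, Nkd1, Fto and Arl2bp, all lower, held none of these letters. A match is a string of letters and no measure of binding.

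In gene order, Nod2 had 4 of the 10 genes before it and 6 after it. In RefSeq 1 protein-coding gene lies between Nkd1 and Nod2, and 2 lie between Nod2 and Tox3. Between Nod2 and the outermost members lie 38 protein-coding genes towards Prdx2 and 47 towards Coq9. Of the 88 protein-coding genes from Prdx2 to Coq9, both ends and Nod2 included, 12 had a probe set in the authors' table. Nod2 was not among them, so the genotype labels were not checked by the level of the targeted gene, which was not analysed here. In mm9, the build of the authors' table, the members lie from 87493521 to 97378795 on chromosome 8, a stretch of 9.89 Mb.

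Prdx2 encodes a cytosolic peroxidase that clears hydrogen peroxide with help from thioredoxin. Its probe set (chromosome 8, 87493521 to 87498707, plus strand) read 6.26, 6.35 and 6.31 (log2 intensity) in Nod2-/- replicates 1, 2 and 3, against 6.92, 6.93 and 6.94 in WT. All Nod2-/- arrays lay below all WT arrays, with a gap of 0.57 between the nearest ones. Means were 6.31 ± 0.04 in Nod2-/- and 6.93 ± 0.01 in WT (SD, n = 3 each), which is 1.54-fold lower. The WT arrays agreed more closely than for nearly any other probe set, since only 1.80% of all probe sets had a smaller SD in WT, while 19.9% had a smaller SD in Nod2-/-. By size of difference Prdx2 ranked 259 of 28853. Of the genes in the table, its pattern over the 6 arrays was most like that of Ube2s (Pearson r = 0.977), which was itself lower in Nod2-/-. For each of the 11 probe sets, the best such match among 844 other probe sets with 1 symbol had an r between 0.917 and 0.995. These correlations share the genotype difference that put both genes in the table, so they describe the arrays and carry no test.

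Orc6 is the smallest subunit of the origin recognition complex, which marks the sites where DNA replication can begin. The probe set (87823690 to 87831970, plus strand) read 6.43, 6.22 and 6.14 in Nod2-/-, against 6.56, 6.79 and 7.15 in WT. The groups did not overlap, but the nearest arrays, both of replicate 1, were 0.13 apart. The means were 6.26 ± 0.15 in Nod2-/- and 6.83 ± 0.30 in WT (SD, n = 3 each), a 1.48-fold lower level. It was the only one of 17 genes of origin recognition and licensing in the authors' table. That table holds 3.65% of all probe sets (1.39% lower and 2.26% higher in Nod2-/-). Here and below, genes of such lists were sought only among the 855 probe sets of the table with 1 symbol.

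Gpt2 is the mitochondrial alanine transaminase, which passes amino groups between glutamate and pyruvate. Its probe set (88016484 to 88051459, plus strand) read 5.89, 5.45 and 5.80 in Nod2-/-, against 6.18, 5.93 and 6.58 in WT. The highest Nod2-/- array lay just 0.04 below the lowest WT array. The means were 5.72 ± 0.23 in Nod2-/- and 6.23 ± 0.33 in WT, 1.43-fold lower, and without WT replicate 3 the log2 difference shrank to -0.34 (-0.51 with all arrays). Among 12 transaminases 3 were in the table. Oat, ornithine aminotransferase, averaged 8.71 ± 0.25 in Nod2-/- and 9.45 ± 0.45 in WT, and Got1, the cytosolic aspartate transaminase, averaged 6.35 ± 0.41 in Nod2-/- and 5.93 ± 0.73 in WT, with overlapping arrays and a log2 difference of 0.41 that became -0.01 without WT replicate 1.

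Nkd1 encodes a feedback inhibitor of Wnt signalling that binds Dishevelled and is itself switched on by Wnt. The probe set (91045253 to 91116950, plus strand) read 5.55, 5.52 and 6.01 in Nod2-/-, against 6.38, 6.16 and 6.87 in WT. No array overlapped, and in both genotypes replicate 3 was the highest. Means of 5.69 ± 0.28 in Nod2-/- and 6.47 ± 0.36 in WT gave a 1.72-fold lower level, the largest difference of the 11 (log2 difference -0.78, rank 134 of 28853). With 1 array left out the difference lay between -0.94 and -0.58.

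Of 25 Wnt target and feedback genes 5 were in the table, 4 lower and 1 higher in Nod2-/-. Besides Nkd1, the lower ones were Lgr5, the stem cell receptor, at 8.70 ± 0.83 in Nod2-/- and 9.15 ± 0.59 in WT, Sfrp5, a secreted Wnt antagonist, at 4.90 ± 0.17 in Nod2-/- and 5.43 ± 0.44 in WT, and Tnfrsf19, at 5.42 ± 0.09 in Nod2-/- and 5.84 ± 0.24 in WT. Sfrp1, another secreted antagonist that also lies on chromosome 8, averaged 7.20 ± 0.18 in Nod2-/- and 6.70 ± 0.47 in WT. Arrays of the genotypes overlapped for Lgr5 and Sfrp1, and for Lgr5 the log2 difference of -0.46 became 0.01 without Nod2-/- replicate 2. For Sfrp5 the mean in Nod2-/- was under the array medians (5.11 to 5.15), and the WT arrays read 5.18, 5.18 and 5.94. The other 20 genes of the list were not found in the table. They were below its thresholds, not measured under their symbols or on probe sets with several symbols.

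**Figure D1:**
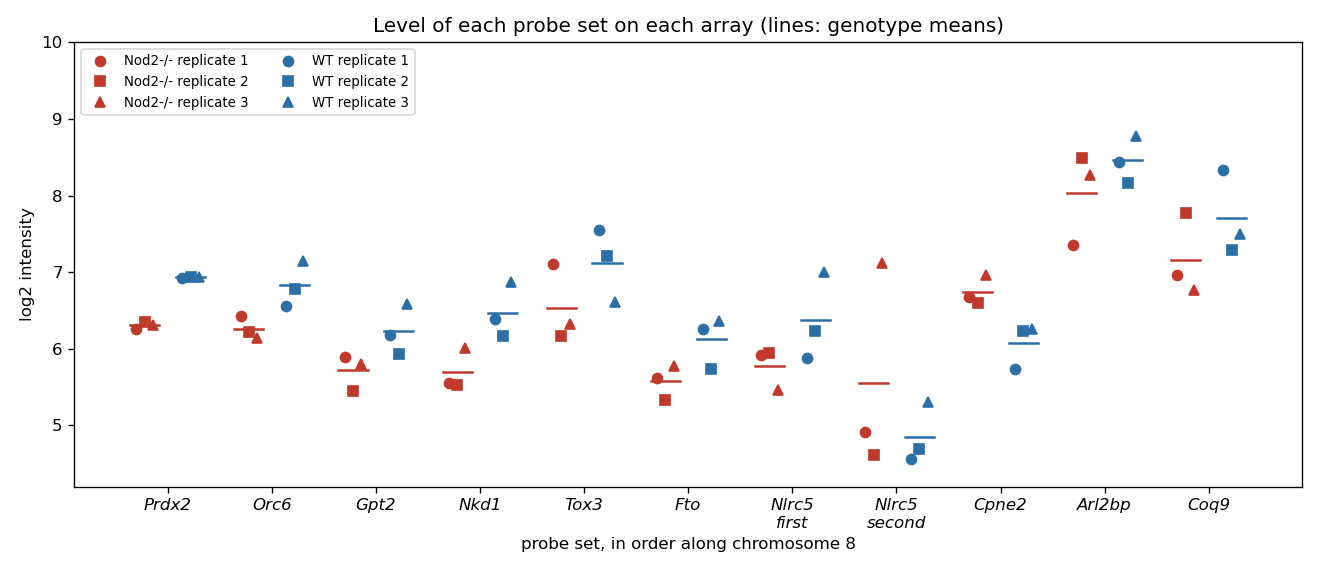
Log2 intensity (vertical axis) of the 11 probe sets of the 10 genes, in order along chromosome 8, with Nod2-/- arrays in red at the left of each pair and WT arrays in blue at the right. Each point is 1 array, its shape gives the replicate number and lines are genotype means; Prdx2, Orc6, Gpt2, Nkd1 and Cpne2 do not overlap between genotypes, and the second probe set of Nlrc5 has a single high Nod2-/- array at 7.12.

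Tox3 encodes a nuclear protein with an HMG box, a domain that bends DNA. It is the only member on the minus strand (92770939 to 92872431) and read 7.11, 6.17 and 6.33 in Nod2-/-, against 7.54, 7.21 and 6.61 in WT. The groups overlapped, since Nod2-/- replicate 1 lay above WT replicate 3. The means were 6.54 ± 0.50 in Nod2-/- and 7.12 ± 0.47 in WT, 1.50-fold lower, and the log2 difference of -0.59 became -0.38 without WT replicate 1. No other member of the 4 genes of the Tox family was in the table.

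Fto removes methyl groups from adenosines in RNA. Its probe set (93837431 to 94192336, plus strand) read 5.62, 5.34 and 5.77 in Nod2-/-, against 6.26, 5.74 and 6.36 in WT. A single pair of arrays crossed, Nod2-/- replicate 3 over WT replicate 2, by 0.03. The means were 5.58 ± 0.22 in Nod2-/- and 6.12 ± 0.33 in WT, 1.46-fold lower. Of 12 genes of RNA and DNA methylation and demethylation the table held Fto and Wtap, a subunit of the methyltransferase that writes the same mark, at 6.91 ± 0.27 in Nod2-/- and 6.47 ± 0.37 in WT.

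Nlrc5 belongs to the NLR family, like Nod2, and is known as the switch for MHC class I genes. The table names a pair of probe sets for it, each covering only 84 bases of the genome and 3510 bases apart on the plus strand, and they differed in opposite directions. The first (97039501 to 97039584) read 5.92, 5.95 and 5.47 in Nod2-/-, against 5.88, 6.23 and 7.002 in WT. Here the groups overlapped, since Nod2-/- replicates 1 and 2 lay just above WT replicate 1. The means were 5.78 ± 0.27 in Nod2-/- and 6.37 ± 0.58 in WT, with a log2 difference of -0.59 that became -0.28 without WT replicate 3.

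The second Nlrc5 probe set (97043095 to 97043178) read 4.92, 4.61 and 7.12 in Nod2-/-, against 4.56, 4.69 and 5.30 in WT. Only Nod2-/- replicate 3 was high, and the other Nod2-/- arrays lay within the WT range. Means were 5.55 ± 1.37 in Nod2-/- and 4.85 ± 0.40 in WT, and without Nod2-/- replicate 3 the log2 difference of 0.70 turned to -0.08, while without Nod2-/- replicate 2 it was 1.17. The SD within Nod2-/- was larger than for 99.9% of probe sets. Its mean in WT was under the array medians (5.11 to 5.15), and how far the signal stood above background was not analysed.

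Between this pair lies, by the numbering of the array, 1 probe set without a name in these files. It averaged 4.77 ± 0.08 in Nod2-/- and 4.92 ± 0.09 in WT. From the first Nlrc5 probe set up to Cpne2 the numbering holds 10 such unnamed probe sets, with log2 differences between -0.29 and 0.39, of which 7 were lower in Nod2-/-. Nod2-/- replicate 3 was the highest of the 6 arrays in 0 of these 10, so the high reading of the second Nlrc5 probe set was not shared by its neighbours on the array. None of the other 13 MHC class I genes and partners listed with Nlrc5, such as B2m, Tap1 and Psmb9, was found in the table. Probe sets with several symbols were not searched for them.

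Cpne2 encodes a copine, a protein that binds membranes when calcium rises, and starts 13749 bases beyond the last Nlrc5 probe set. Its own (97056928 to 97094429, plus strand) read 6.67, 6.60 and 6.97 in Nod2-/-, against 5.73, 6.23 and 6.26 in WT. All Nod2-/- arrays were above all WT arrays, by at least 0.33. The means were 6.75 ± 0.20 in Nod2-/- and 6.08 ± 0.30 in WT, 1.59-fold higher, so Cpne2 was the only one of the 10 genes that was higher without overlap. None of the other 8 copines listed was in the table. The gene in the table most like it over the 6 arrays was Serpina3n (r = 0.989), a secreted protease inhibitor.

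Arl2bp binds the small GTPase ARL2. Its probe set (97190551 to 97198325, plus strand) read 7.36, 8.49 and 8.27 in Nod2-/-, against 8.44, 8.16 and 8.78 in WT. Nod2-/- replicate 1 was low and the remaining Nod2-/- arrays fell within the WT range. The means were 8.04 ± 0.60 in Nod2-/- and 8.46 ± 0.31 in WT, with a log2 difference of -0.42, just inside the threshold of the table, and of -0.08 without Nod2-/- replicate 1. Without WT replicate 3 it was -0.26, and without Nod2-/- replicate 2 it was -0.65.

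Coq9 is a lipid-binding protein of the mitochondrial complex that makes coenzyme Q. The probe set (97362317 to 97378795, plus strand) read 6.96, 7.77 and 6.76 in Nod2-/-, against 8.33, 7.29 and 7.49 in WT. Nod2-/- replicate 2 lay above both WT replicates 2 and 3. The means were 7.16 ± 0.54 in Nod2-/- and 7.70 ± 0.55 in WT, so the log2 difference of -0.54 was about as large as the spread within a genotype. Without WT replicate 1 it was -0.23, without Nod2-/- replicate 3 it was -0.34 and without Nod2-/- replicate 2 it was -0.85.

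Of 14 genes of coenzyme Q synthesis 3 were in the table, 2 lower and 1 higher. Coq5, a methyltransferase of the pathway, averaged 5.91 ± 0.28 in Nod2-/- and 6.35 ± 0.40 in WT, with overlapping arrays. Pdss1, which helps make the side chain of coenzyme Q, averaged 6.95 ± 0.18 in Nod2-/- and 6.19 ± 0.07 in WT, with none. Among 18 genes of the peroxiredoxin and thioredoxin list only Prdx2 and Gpx2 were in the table, and Gpx2, an epithelial glutathione peroxidase, averaged 11.32 ± 0.18 in Nod2-/- and 10.86 ± 0.35 in WT. Of 12 genes around ARL2 the table held Arl2bp alone, and of 18 genes of Nod2 signalling it held 0.

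Column names in the authors' table hold a number in the form of a date, which replicates 2 and 3 of both genotypes share and which differs at replicate 1. It is not stated what happened on it. In 10 of the 11 probe sets the difference had the same sign within both dates, the exception being the first probe set of Nlrc5 (0.04 at replicate 1 and -0.91 at replicates 2 and 3). The members were selected on the mean over both dates, which favours a shared sign, so this is no independent support. Replicate 1 is also only 1 array per genotype, and the share over other probe sets was not counted. Prdx2 (-0.66 and -0.61), Nkd1 (-0.83 and -0.75) and Fto (-0.64 and -0.50) were of similar size within both. Coq9 (-1.38 and -0.12) and Arl2bp (-1.08 and -0.09) differed far more at replicate 1, and Orc6 (-0.13 and -0.79) differed more at replicates 2 and 3.

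**Figure D2:**
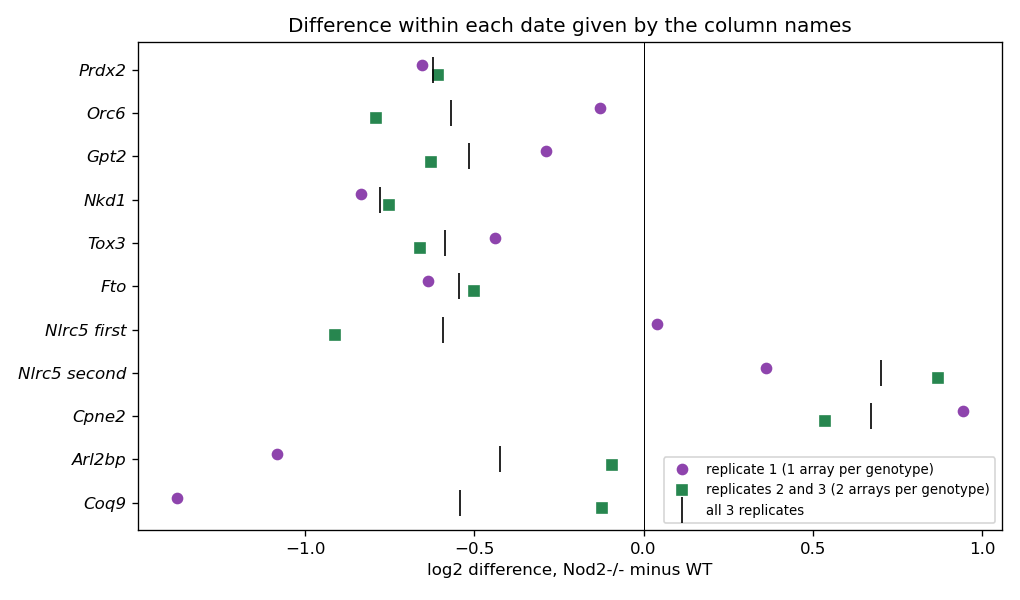
Log2 difference, Nod2-/- minus WT (horizontal axis), for each of the 11 probe sets (rows). Circles compare the single array per genotype of replicate 1, squares compare replicates 2 and 3, and black ticks are all 3 replicates; Prdx2, Nkd1 and Fto keep circle and square close together, while Coq9 and Arl2bp do not.

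The arrays did not contribute evenly. WT replicate 3 was the highest of the WT arrays in 9 of the 11 probe sets, and Nod2-/- replicate 2 was the lowest of the Nod2-/- arrays in 6. Selection of probe sets lower in Nod2-/- favours a high WT array or a low Nod2-/- array, and the share over all probe sets was not counted. Without WT replicate 3 the median over the 10 genes was -0.42. Array medians over all probe sets were alike (34.5 to 35.4, intensity), and pairs of arrays correlated at 0.971 to 0.987 across probe sets.

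The 10 genes are not all that the table holds in this stretch. It has 14 probe sets there, and the 3 that do not belong to the 10 genes were all higher in Nod2-/-, so that 9 of 14 were lower and 5 higher. Junb, a subunit of the AP-1 transcription factor, lies 2101 bases beyond the end of Prdx2 on the opposite strand (87500809 to 87502647). It read 6.43, 6.38 and 6.38 in Nod2-/-, against 5.86, 5.83 and 6.09 in WT. As with Prdx2 the groups did not overlap, but the direction was the opposite. The SD was 0.03 in Nod2-/- and 0.14 in WT, and 7.92% and 63.3% of all probe sets had a smaller SD in Nod2-/- and in WT.

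Ces1c, a carboxylesterase named Es1 in the authors' table (95622914 to 95655170, minus strand), averaged 6.42 ± 0.63 in Nod2-/- and 5.48 ± 0.14 in WT. A probe set without a symbol (93479007 to 93480612, minus strand) averaged 6.96 ± 0.09 in Nod2-/- and 6.23 ± 0.40 in WT. In both, the genotypes did not overlap. The nearest probe sets of the table outside the stretch were Trmt1, a tRNA methyltransferase, at 5.85 ± 0.23 in Nod2-/- and 6.37 ± 0.14 in WT, and Zfp319, at 5.44 ± 0.46 in Nod2-/- and 4.87 ± 0.15 in WT. Both lie beyond the outermost of the 10 genes.

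Along the whole of chromosome 8 the table has 81 probe sets, 42 lower and 39 higher in Nod2-/-, while over all chromosomes 400 of 1053 (38.0%) were lower. In windows of 10 Mb counted from the start of the chromosome, the one from 90 to 100 Mb held 13 of the 81, the most of any such window, and those from 20 to 30 Mb, where Defb1 lies, held 12. The 10 Mb from 80 to 90 Mb held 10 and those from 100 to 110 Mb held 11.

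**Figure D3:**
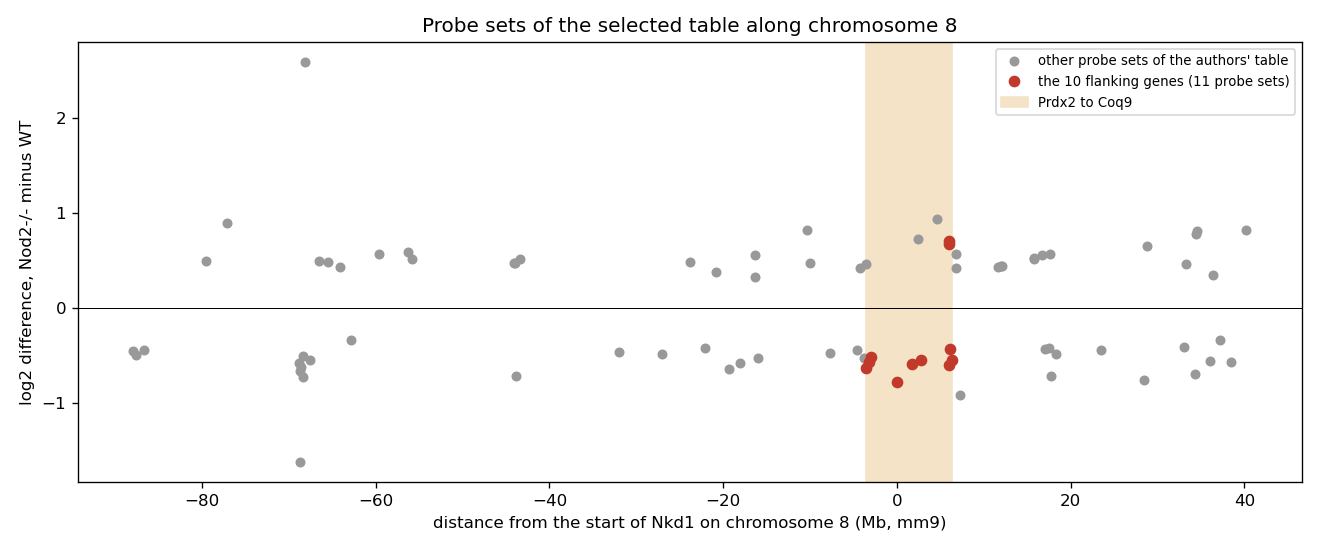
Log2 difference, Nod2-/- minus WT (vertical axis), of the 81 probe sets of the authors' table on chromosome 8 against distance from the start of Nkd1 (horizontal axis, Mb). Red points are the 11 probe sets of the 10 genes, grey points are the others and the shaded band runs from Prdx2 to Coq9; no point lies near 0 because the table was selected on the difference.

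A count against all probe sets placed in the stretch was also made. Probe set numbers on chromosome 8 rise with position on each strand in all 81 probe sets of the table (over the other chromosomes 3 were out of order), so the unnamed ones between named ones can be placed, though not named. On the plus strand 81 probe sets run from Prdx2 to Coq9, and on the minus strand 38 run from Junb to Ces1c, 119 in all. Of these, 14 (11.8%) passed the fold threshold of the table, against 4.89% of 1248 probe sets on the rest of chromosome 8 and 3.30% of the 28734 probe sets outside the stretch. These sets also differed in brightness, with a median level (log2 intensity) of 5.55, 5.39 and 5.14 in the same order. The part of brightness in the shares was not tested. On the minus strand the next probe set of the table after Ces1c is that of Zfp319, which lies beyond Coq9, and 22 probe sets are numbered between them, none past the threshold. Some of these 22 may lie before the end of Coq9, and with all of them added 14 of 141 (9.93%) passed. The ends of the stretch are themselves probe sets past the threshold, which raises these shares, and the stretch was chosen with the differences known, so no test was made.

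The median log2 difference of the 119 probe sets was -0.01, as over all probe sets, and 53.8% of them were lower in Nod2-/-, against 53.5% of the others. Among the 105 that are not in the table, the genotypes did not overlap in 13 (12.4%), against 6.71% of the 27695 others that are not in the table, and with the 22 added in 14 of 127 (11.02%). The 105 were also brighter, at a median level of 5.31 against 5.09 in the 27695, and the part of this was not tested. Differences were thus found in single probe sets of the stretch in both directions, on a median near 0.

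The threshold cuts through a continuous range. The member closest to it was Arl2bp, at -0.42. The closest probe set of the stretch outside it had no name here and a log2 difference of 0.39, with 5.21 to 5.70 in Nod2-/- and 4.93 to 5.04 in WT. The next were at -0.33, -0.33 and -0.29.

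**Figure D4:**
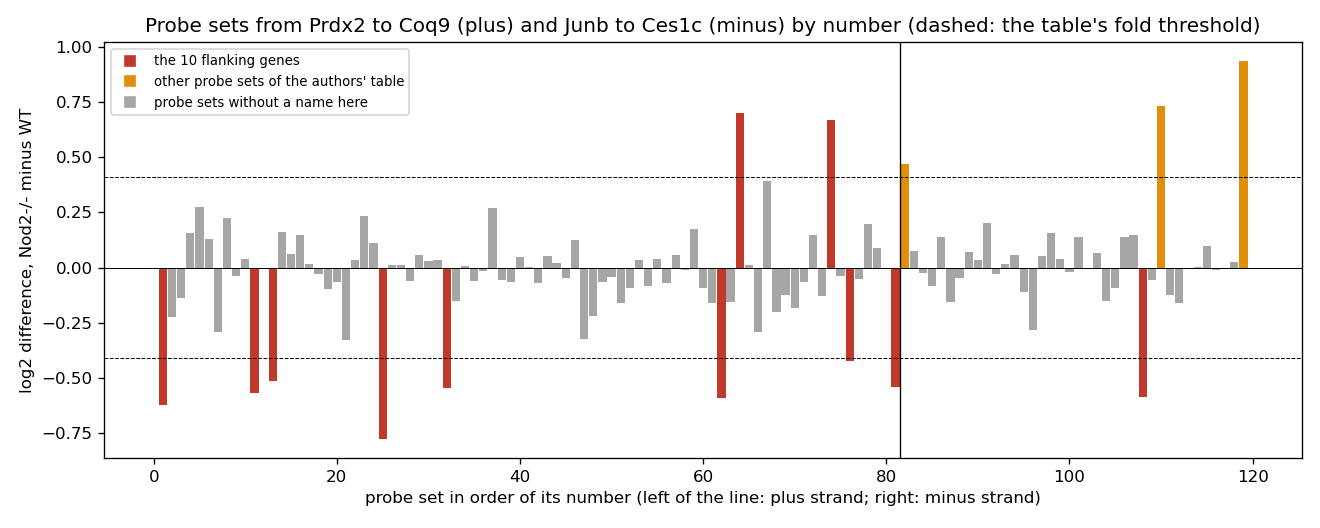
Log2 difference, Nod2-/- minus WT (vertical axis), of 119 probe sets in order of their number, those of the plus strand from Prdx2 to Coq9 left of the line and those of the minus strand from Junb to Ces1c right of it. Red bars are the 10 genes, orange bars the other probe sets of the authors' table and grey bars those without a name here; 14 bars reach past the dashed threshold, 9 of them downwards.

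Markers of several cell types in and around the crypt base also differed between the genotypes in the same table. Of 10 fibroblast genes 6 were in it, all higher in Nod2-/-, and their summed intensity was 1986 to 2838 in Nod2-/- and 1052 to 1826 in WT. Of 10 leukocyte genes only Cd74 and H2-Aa were in it, with a summed intensity of 979 to 1867 in Nod2-/- and 268 to 1713 in WT, while Ptprc, Cd3e, Cd8a and Cd79a had no place in it. That difference rested on WT replicate 1, since WT replicates 2 and 3 summed to 1713 and 1496, and without WT replicate 1 the log2 differences turned to -0.23 for Cd74 and -0.36 for H2-Aa. Of 5 enterocyte genes 3 were in it, all lower (534 to 861 in Nod2-/- and 826 to 1376 in WT), and of 5 stem cell genes 2, both lower (258 to 692 in Nod2-/- and 477 to 978 in WT). Of 8 Paneth cell genes Mptx1 and Reg3g were in it, both higher, of 5 goblet cell genes 4, with 2 in each direction, and of 4 smooth muscle genes 0. WT replicate 1 stood apart in these lists: among the WT arrays it was the lowest in all 6 fibroblast genes, both leukocyte and both Paneth cell genes, and the highest in all 3 enterocyte genes and both stem cell genes. Of the 11 probe sets of the 10 genes, it was the highest WT array in 2, those of Tox3 and Coq9, and the lowest in 5, those of Prdx2, Orc6, Cpne2 and both of Nlrc5. Without it the sums in WT were 1778 to 1826 for the fibroblast genes, still below all Nod2-/- arrays. They were 826 to 860 for the enterocyte genes and 477 to 529 for the stem cell genes. Both of these ranges lay within the range of Nod2-/-. Each gene of these lists kept its direction, but for the enterocyte and stem cell genes that shows no stability. The part of these cells in the differences of the 10 genes was not tested, and because only the probe sets of the table carry names, Paneth cell markers such as Lyz1 and Defa24 could not be used to check the labelled cell type.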

How the data were processed

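Total RNA of 6 laser captures was measured on one-colour arrays. Per the file headers, the annotated table uses MoGene 1.0 ST, annotation release 31 and mouse build mm9. The deposited intensity values were made by the authors with RMA, per the submitters' processing notes, and are on a linear scale (18.8 to 12280). Which software and settings ran it is not given in the sources used here. RMA equalises the distributions of the arrays, so a shift common to all probe sets would not be seen. The intensities of the table equalled the value table in all 1053 probe sets (relative tolerance 0.001), and its 12 further columns of values per sample were not used. The selection rules in the headers, recomputed, gave the same 1053 probe sets.

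Log2 was taken, with no filter. Values are means ± SD of 3 arrays, grouped by the titles of the samples. limma 3.58.1 in R 4.3.3 (lmFit, eBayes, Benjamini-Hochberg) was run over all probe sets and tested on simulated data. Python 3.11.15 did the rest. Symbols were updated by Entrez number through RefSeq (GRCm38.p6), which also gave gene order and upstream sequence. The named genes were all members, other probe sets of the table in the stretch, the nearest beyond it, listed genes in the table and the most correlated gene of each member. The members and lists were chosen with earlier results of these data known. The number of arrays limits the precision. Alternatives left out each array, used the date or replicate number as a block, filtered dim probe sets, changed the prior and normalized again.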

Additional observations from a re-analysis of the deposited data

How the results depend on the processing

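With 1 array left out, 65 of 66 differences of the 11 probe sets kept their direction; with 3 arrays a group such values cannot move by 1 SD, and the replicate block leaves a difference as it was, so neither shows stability. Over 6 other settings 60 of 66 differences stayed within 1 SD of the value with all arrays and kept its direction, and the other 6 were all within the date of replicate 1. Among these settings, centring and normalizing again act on arrays that RMA had already equalised and could move little. The count of 60 therefore shows no stability either. The end of the stretch on the minus strand, varied after seeing the data, set the share past the threshold at 11.8% or 9.93%. The first Nlrc5 probe set turned to 0.041 within the date of replicate 1, and the second ranged from -0.083 without Nod2-/- replicate 3 to 1.17 without Nod2-/- replicate 2. The median over the 10 genes lay between -0.64 and -0.42 with 1 array left out, and the probe sets without overlap numbered 6 each time, against 5 with all arrays. Fewer arrays make non-overlap easier by construction, and the share over all probe sets, most of them not selected, was then 16.6% to 18.8%. With limma the count past the adjusted threshold was between 0 and 2 with 1 array left out. It was 3 with probe sets below the median left out and 3 with a trended and robust prior, and the cause was not tested. Deviations of arrays with the same replicate number correlated at 0.20, -0.02 and 0.06 for replicates 1, 2 and 3, so only replicate 1 passed 0.1. Nod2-/- replicate 2 and WT replicate 3, of unlike number, correlated at 0.16. With the replicate block the count past the adjusted threshold was 0 (lowest adjusted p 0.969, limma). Signal over background was not analysed.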
